A study of Papio anubis with 8 samples.

Results

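Marker genes of the neuronal layers of the cerebral cortex and of the adjoining subiculum were followed in RNA from fetal baboon hippocampus. The set was defined by name: every gene whose symbol was RORB, CUX1, CUX2, FEZF2, TBR1, BCL11B, TLE4 or LAMP5. Of these 8 names, 7 had a row under their symbol among the 37053 genes of the table, and all 7 passed the filter on low counts, which asks for about 10 counts in each of the 8 libraries. TLE4 had no row under its symbol. The table gives TLE4 as an alias of LOC101026511, described there as transducin-like enhancer protein 4, and this locus is reported beside the 7 genes as the TLE4 locus and is not counted among them.

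RNA came from fetuses of the olive baboon (Papio anubis) at 0.9 of term, hippocampus only, in a study of mothers that differed in body fat and leptin. There are 8 libraries, AMB3 to AMB10, each from 25 ng of total RNA. The labels give no maternal group, treatment or sex for any library, and do not say that each came from a different fetus. Values are therefore given by library, and no library is treated as a replicate of another. One feature of the deposited table names a subset: its normalized values are centred, in 100% of the tested genes, on the median of AMB3, AMB8 and AMB10 (the next best trio, 46.6%). The labels do not say why this trio was chosen.

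In the neocortex, projection neurons are stacked in layers that send axons to different targets. Upper-layer neurons, which carry CUX1, CUX2 and, in the granular layer, RORB, connect mainly with other cortical areas. Deep-layer neurons, which depend on FEZF2, BCL11B, TBR1 and the corepressor TLE4, project to the spinal cord, brainstem and thalamus. The subiculum is the transition from the hippocampal CA fields to this layered cortex, and several of the same transcription factors are used there. None of these genes is exclusive to the cortex: BCL11B is also a gene of dentate granule cells, CA1 pyramidal cells and striatal projection neurons, TBR1 of young glutamatergic neurons, and LAMP5 of a class of interneurons.

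Total counts ran from 40404878 to 71648654 per library. Levels are in CPM, counts scaled to library size, and compare 1 gene between libraries and not different genes, which differ in length. Intervals are exact 95% Poisson intervals, which cover counting error only. In a piece of tissue, fewer cells of a type and less RNA per cell cannot be told apart. Genes of the hippocampal label were detected in every library, but at levels that differed widely. Among them, PROX1, a homeobox factor that keeps dentate granule cells in their fate, ran from 14.4 to 96.7 CPM. FIBCD1, a CA field marker, ran from 9.01 to 400.1 CPM. Detection does not give the share of hippocampal cells in a library.

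CUX2 and RORB, the upper-layer transcription factors, differed more between libraries than any of the other members, and CUX1 much less. Both were low in AMB8 and AMB10 and high in AMB7. CUX2 (chromosome 9, 105333606 to 105653106 on Panubis1.0), a cut-like homeodomain protein that shapes dendrites of upper-layer neurons, stood at 12.1 CPM in AMB8 (interval 11.3 to 12.9, 807 counts), 16.2 in AMB10, 57.3 in AMB3, 139 in AMB5, 185 in AMB4, 191 in AMB6, 195 in AMB9 and 277 in AMB7 (274 to 281, 19796 counts). The highest library was 23.0 times the lowest, a log2 range of 4.52. AMB8 and AMB10 lay apart from the rest, AMB3 lay alone between 16.2 and 139 CPM, and the counting intervals of AMB4, AMB6 and AMB9 overlapped from each to the next.

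RORB (chromosome 13, 22674659 to 22871449), an orphan nuclear receptor of neurons that receive thalamic input, stood at 17.4 CPM in AMB8, 21.3 in AMB3, 21.9 in AMB10, 98.4 in AMB5, 129 in AMB6, 166 in AMB9, 176 in AMB4 and 268 in AMB7. The largest step in this order was 4.50-fold, between AMB10 and AMB5. AMB3 and AMB10 were not told apart by counting error, and AMB3 thus sat with the lowest libraries for RORB while it sat between them and the others for CUX2. The 15.4-fold difference between AMB7 and AMB8 gave a log2 range of 3.94, or 3.34 without AMB7.

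CUX1 (chromosome 4, 137789123 to 138257707), the paralog of CUX2, kept a similar order on a smaller scale. It stood at 74.7 CPM in AMB8, 83.3 in AMB3, 86.9 in AMB10, 106 in AMB5 and AMB9, 116 in AMB6, 125 in AMB4 and 143 in AMB7, a 1.92-fold difference. AMB8, AMB3 and AMB10 were again the lowest and AMB7 the highest. CUX1 is expressed in many cell types besides neurons, and its locus has 18 RefSeq transcripts, which a value per gene does not separate.

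**Figure D1:**
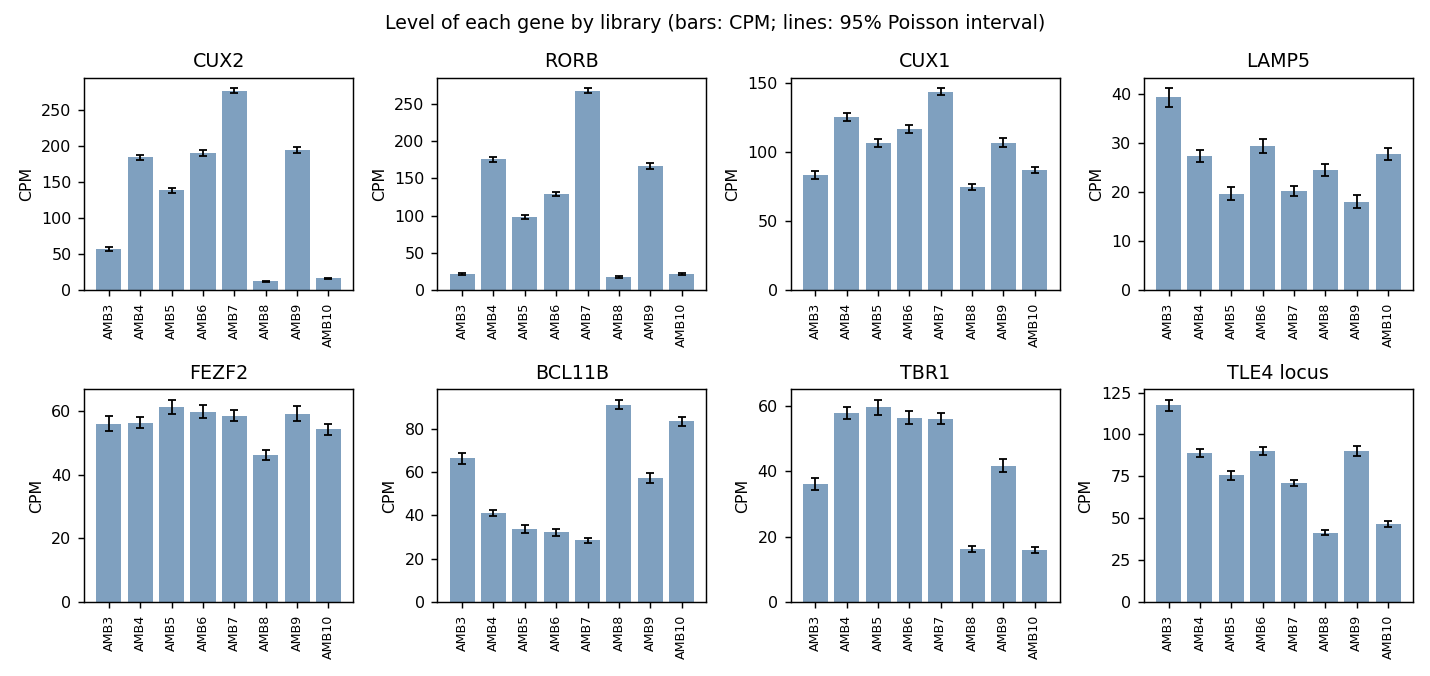
Level in CPM (y axis, linear, from 0, scaled separately in each panel) of the 7 genes and the TLE4 locus in each of the 8 libraries (x axis); lines on the bars are exact 95% Poisson intervals. CUX2 and RORB are low in AMB3, AMB8 and AMB10, BCL11B is highest in those libraries, and FEZF2 is near 60 CPM in most.

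Among the deep-layer genes, FEZF2 was nearly level, TBR1 was lowest in AMB8 and AMB10, and BCL11B was highest there. FEZF2 (chromosome 2, 77897984 to 77901871), the zinc finger factor that directs neurons to the spinal cord and brainstem, stood at 46.1 CPM in AMB8, 54.3 in AMB10, 56.0 in AMB3, 56.3 in AMB4, 58.5 in AMB7, 59.1 in AMB9, 59.7 in AMB6 and 61.2 in AMB5. The log2 range was 0.41, and 0.17 once AMB8 was left out. Of the 7 steps between neighbours in this order, 6 had overlapping counting intervals, and the step that did not was that from AMB8 to AMB10.

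BCL11B (chromosome 7, 7289021 to 7393271), a zinc finger factor that lies downstream of FEZF2 in corticospinal neurons, stood at 28.5 CPM in AMB7, 32.2 in AMB6, 33.6 in AMB5, 41.2 in AMB4, 57.2 in AMB9, 66.5 in AMB3, 83.6 in AMB10 and 91.4 in AMB8. The ends of this order are those of CUX2 exchanged: AMB7 was lowest and AMB8 highest, 3.21-fold apart. Counting intervals overlapped between AMB5 and AMB6 and between no other neighbours.

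TBR1 (chromosome 10, 45067209 to 45076728), a T-box factor that sets corticothalamic identity and represses FEZF2, stood at 16.0 CPM in AMB10, 16.2 in AMB8, 36.0 in AMB3, 41.6 in AMB9, 56.1 in AMB7, 56.4 in AMB6, 57.9 in AMB4 and 59.7 in AMB5. The libraries fell on 2 plateaus, with AMB3 and AMB9 between them. Neither AMB8 and AMB10 nor any neighbours among AMB4, AMB5, AMB6 and AMB7 were told apart by counting error. The 3.74-fold difference was a log2 range of 1.90.

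The TLE4 locus (chromosome 13, 17735818 to 17892843), a Groucho-family corepressor gene used as a marker of corticothalamic neurons, stood at 41.2 CPM in AMB8, 46.5 in AMB10, 70.8 in AMB7, 75.5 in AMB5, 89.0 in AMB4, 90.0 in AMB9, 90.1 in AMB6 and 117 in AMB3. Its lowest libraries were those of TBR1, but AMB3 was its highest, where TBR1 was at an intermediate level. The log2 range was 1.51, and 1.13 without AMB3.

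LAMP5 (chromosome 16, 48855892 to 48878890), a lysosome-associated membrane protein of neurons, followed neither order. It stood at 17.9 CPM in AMB9, 19.6 in AMB5, 20.1 in AMB7, 24.5 in AMB8, 27.3 in AMB4, 27.7 in AMB10, 29.3 in AMB6 and 39.2 in AMB3. AMB3 was the highest by 1.34-fold over the next library, and AMB5, AMB7 and AMB9 were low. The log2 range was 1.13, and 0.71 with AMB3 left out. It also came to just under 1 with AMB9 left out.

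Among the 16874 genes that passed the filter, 36.1% spanned 1 or more on the log2 scale and 9.0% spanned 2 or more. Of the 7 members, 5 spanned 1 or more (CUX2, RORB, TBR1, BCL11B and LAMP5) and 2 spanned 2 or more (CUX2 and RORB). The median range of the members was 1.68, against 0.77 over all tested genes. The range of CUX2 was larger than in 99.6% of tested genes and that of RORB than in 99.1%, whereas that of FEZF2 was larger than in 15.4%. AMB3, AMB8 and AMB10 were the 3 lowest libraries in 9.87% of tested genes and the 3 highest in 9.71%. They were the 3 lowest for 5 of the 7 members, RORB, CUX1, CUX2, FEZF2 and TBR1, and the 3 highest for BCL11B. For FEZF2 this rests on AMB3 (56.0 CPM) being below AMB4 (56.3 CPM), which were not told apart by counting error.

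**Figure D2:**
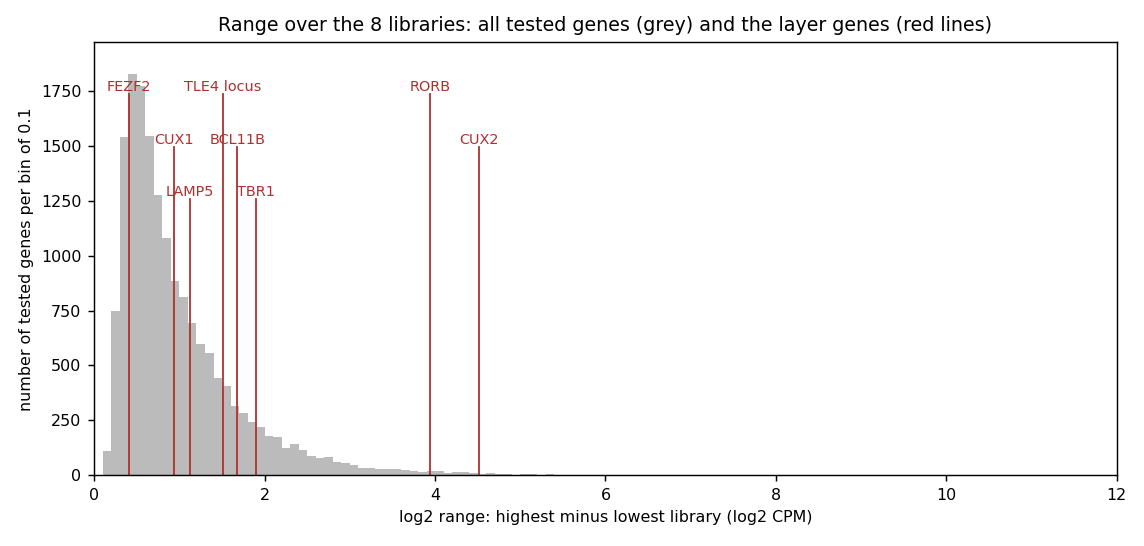
Number of tested genes (y axis, bins of 0.1) by log2 range over the 8 libraries (x axis, highest minus lowest log2 CPM), with red lines at the 7 genes and the TLE4 locus. CUX2 (4.52) and RORB (3.94) lie in the far tail, FEZF2 (0.41) lies near the peak, and the other genes lie between 0.94 and 1.90.

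Ratios of the counts of a pair of genes within a library do not depend on how the library is scaled. Their level depends on the lengths of both genes, but their fold between libraries does not. The ratio of CUX2 to BCL11B was 0.132 in AMB8, 0.194 in AMB10, 0.862 in AMB3, 3.40 in AMB9, 4.14 in AMB5, 4.48 in AMB4, 5.93 in AMB6 and 9.74 in AMB7. AMB8 and AMB10 were lowest, AMB3 stood between them and the other libraries, which lay between 3.40 and 9.74. The 73.8-fold span was 44.9-fold without AMB7.

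Ratios of paralogs, of another upper-layer to deep-layer pair, and of genes of a single layer class also differed between libraries. The ratio of CUX2 to CUX1 was 0.162 in AMB8 and 0.187 in AMB10, 0.687 in AMB3, and between 1.31 and 1.93 in the other libraries. That of RORB to FEZF2 was between 0.377 and 0.403 in AMB3, AMB8 and AMB10 and between 1.61 and 4.58 elsewhere. Within the deep-layer genes, TBR1 to FEZF2 was 0.294 in AMB10, 0.352 in AMB8, 0.643 in AMB3, 0.705 in AMB9 and between 0.945 and 1.03 in the other libraries.

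CUX2 and RORB did not keep a fixed ratio to each other. It was 2.69 in AMB3, 0.694 in AMB8, 0.743 in AMB10 and between 1.04 and 1.48 elsewhere, and its 3.88-fold span was 2.13-fold without AMB3. AMB3 was thus the library in which RORB was low relative to CUX2.

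**Figure D3:**
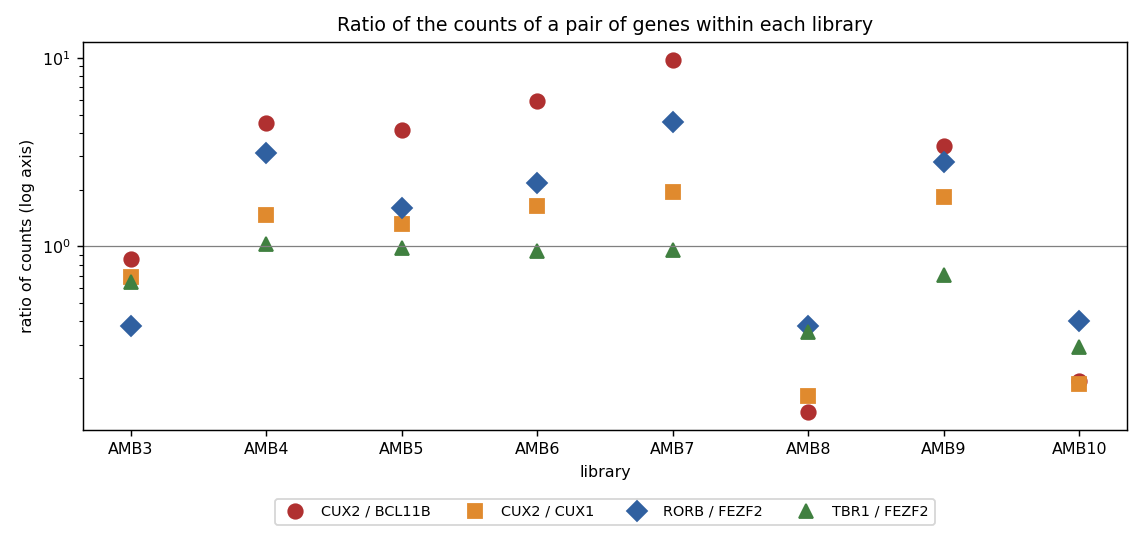
Ratio of the counts of 4 pairs of genes (y axis, logarithmic) in each of the 8 libraries (x axis); the grey line marks a ratio of 1, whose position depends on gene length. CUX2 to BCL11B spans 0.132 to 9.74, and each of the 4 ratios is lower in AMB3, AMB8 and AMB10 than in any other library.

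The members were also set against general neuronal RNA. The summed level of 10 genes of all neurons, such as SNAP25 and STMN2, lay between 8486 CPM in AMB8 and 10388 in AMB5. Its single genes had log2 ranges from 0.23 (ELAVL3) to 1.52 (ELAVL4), with NEFM at 1.47. Per 1000 counts of that sum, CUX2 had 1.42 counts in AMB8, 1.89 in AMB10, 5.52 in AMB3 and 31.1 in AMB7. On this scale the log2 range of CUX2 was 4.45, of RORB 3.87, of TBR1 1.88, of BCL11B 1.76, of LAMP5 1.12 and of FEZF2 0.38. That of CUX1 was 1.001, against 0.94 in CPM, and that of the TLE4 locus 1.22, against 1.51. Of the 7 members, 6 thus spanned 1 or more on this scale and 2 spanned 2 or more. The highest and lowest libraries of CUX2 and BCL11B were as in CPM, and RORB was at 2.05 in both AMB3 and AMB8. FEZF2 differed: its lowest libraries on this scale were AMB3 (5.39), AMB8 (5.43) and AMB9 (5.72), and AMB10 stood at 6.31. The trio AMB3, AMB8 and AMB10 was thus lowest for FEZF2 in CPM but not per neuronal count, and was lowest for 4 of the 7 members.

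Other upper-layer genes mostly had wide ranges too, but not in 1 direction. Of 14 listed besides the members, 13 passed the filter. Of these, 10 spanned 1 or more on the log2 scale and 4 spanned 2 or more, and the median was 1.74. AMB3, AMB8 and AMB10 were the 3 lowest for 5 of the 13 (38.5%) and the 3 highest for 2 (15.4%). Over all tested genes the shares were 9.87% and 9.71%. MEF2C, a transcription factor of maturing neurons, stood at 123 CPM in AMB8, 139.9 in AMB10, 326 in AMB3 and 1201 to 1782 elsewhere. The same 3 libraries were lowest for INHBA, RASGRF2 and POU3F3, which were picked out by their values. CARTPT, a neuropeptide precursor, went the opposite way, with 119 CPM in AMB3, 97.9 in AMB8, 74.2 in AMB10 and 7.67 to 14.8 elsewhere, and KCNIP2, a potassium channel subunit also named afterwards, shared its 3 highest libraries.

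All 22 deep-layer genes listed besides the members passed the filter, and 18 spanned 1 or more on the log2 scale and 10 spanned 2 or more, with a median of 1.81. The same libraries AMB3, AMB8 and AMB10 were lowest for 4 of them (18.2%) and highest for 3 (13.6%), against 9.87% and 9.71% over all tested genes. FOXP2, a forkhead factor of corticothalamic neurons, was the widest, from 1.59 CPM in AMB8 to 67.6 in AMB7. The next, TSHZ2, a zinc finger gene, ran from 3.25 CPM in AMB8 to 128 in AMB3, so that AMB3 stood at the top and not at the bottom. The most counted by median CPM were DKK3, a secreted glycoprotein, at 342 to 645 CPM, and LMO4, a LIM-domain cofactor, at 232 to 436 CPM, both with ranges under 1.

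**Figure D4:**
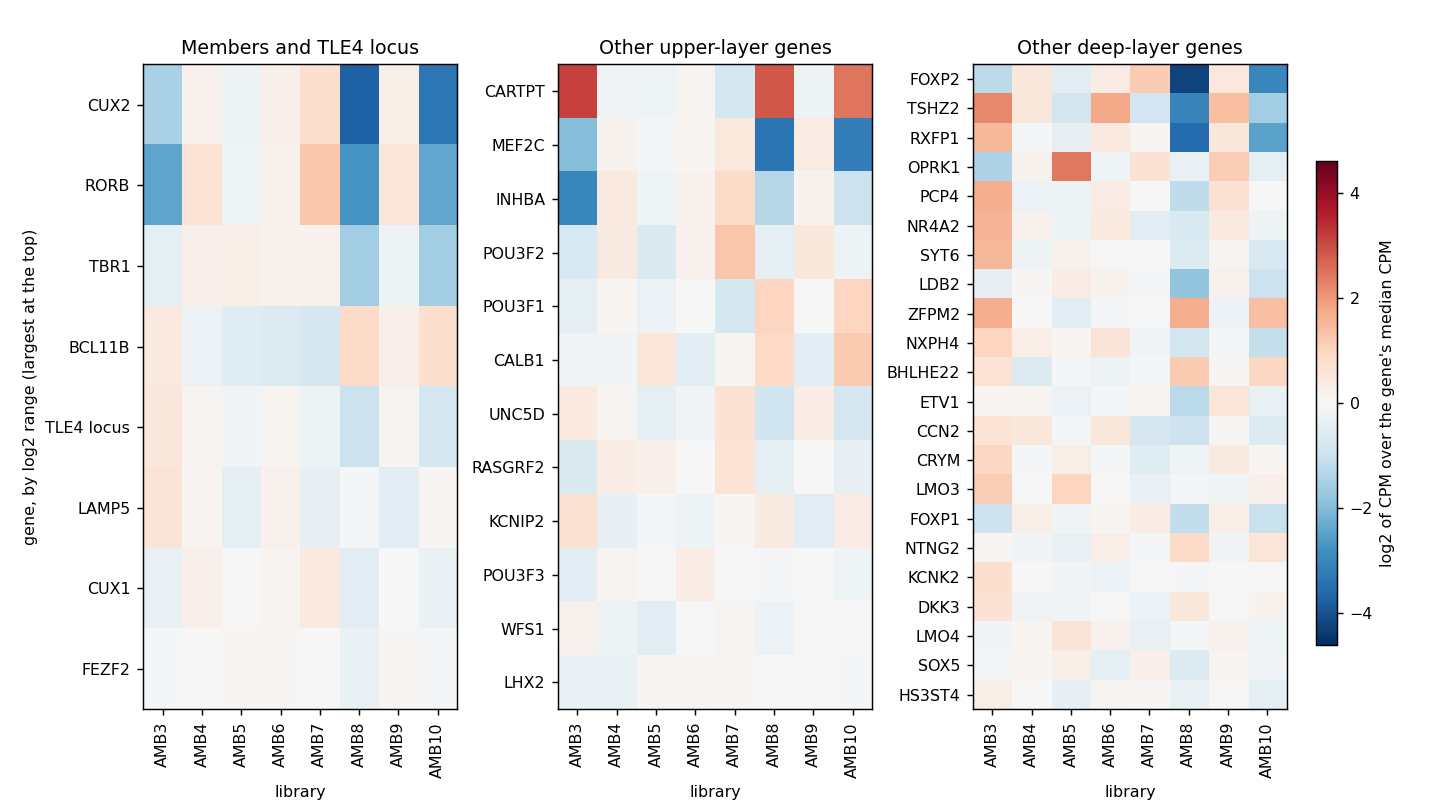
Log2 of the CPM in each library (columns) over the gene's median CPM (colour, blue below and red above the median) for the 7 genes with the TLE4 locus, 12 other upper-layer and 22 other deep-layer genes, sorted by log2 range. CUX2, RORB, MEF2C and FOXP2 are blue in AMB8 and AMB10, CARTPT is red in AMB3, AMB8 and AMB10, and TSHZ2 is red in AMB3 and blue in AMB8.

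Of 14 genes used to mark the subiculum and entorhinal cortex, 12 passed the filter, with a median log2 range of 1.72. The filter left out NTS, the neurotensin precursor, because of its near absence in AMB7: it stood at 0.0841 CPM there, 18.9 in AMB5, 28.3 in AMB6, 33.2 in AMB4, 91.7 in AMB8, 109 in AMB10, 125 in AMB9 and 164 in AMB3. Its log2 range of 10.4 was wider than that of any of the 12, so the median holds only for genes counted in every library. NTS was picked out by its values. AMB3, AMB8 and AMB10 were the 3 lowest for 2 of the 12 (16.7%) and the 3 highest for 2 (16.7%). The shares over all tested genes were 9.87% and 9.71%. The most counted were FN1, fibronectin, at 270.4 to 482 CPM, and RELN, the secreted guide of neuronal positioning, at 184 CPM in AMB8 to 343 in AMB3. Fibronectin is also made by vessels, so it does not mark neurons alone.

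Markers of other hippocampal fields also differed between libraries, and their part in the members' values was not tested. The summed level of 13 dentate granule genes was 1086 CPM in AMB8 and 981 in AMB10 and between 531 and 615 in the other libraries. NPNT alone gave 421 CPM of the sum in AMB8 and 285 in AMB10, and 72.7 to 86.5 elsewhere. With each tested gene centred on its own median, the median log2 level of the list was 0.74 in AMB8 and 0.91 in AMB10. It lay between -0.15 and -0.02 elsewhere. AMB3, AMB8 and AMB10 were the 3 highest for 4 of the 12 tested dentate genes (33.3%) and 5 of 17 CA field genes (29.4%). The share over all tested genes was 9.71%. The same libraries were the 3 lowest for 2 (16.7%) and 1 (5.88%), against 9.87% over all tested genes. The dentate gene with the highest median CPM, PDZD2, a PDZ domain protein, went the other way, from 42.5 CPM in AMB8 to 159 in AMB7. Of the CA field genes, FIBCD1 ran from 9.01 CPM in AMB5 to 400.1 in AMB8 and RGS14, a signalling regulator of CA2 neurons, from 4.99 in AMB7 to 167 in AMB10. PROX1 reached 96.7 CPM in AMB8, 49.1 in AMB3 and 81.9 in AMB10, the 3 libraries in which BCL11B was highest. The ratio of BCL11B to PROX1 ran from 0.945 in AMB8 to 2.33 in AMB5, a span of 2.46-fold. Striatal projection genes, which share BCL11B, were lowest in sum in AMB8 (142 CPM) and highest in AMB7 (254 CPM), the reverse of BCL11B. With each tested gene centred on its own median, the list had the same end libraries (-0.18 and 0.20). Its single genes did not all follow. TAC1 stood at 25.6 CPM in AMB8 and 92.4 in AMB7, but DRD1 was highest in AMB10 (33.1 CPM) and AMB8 (28.7 CPM), as BCL11B was high there. Of that list, the transcription factor gene ISL1 had no count in 7 of the 8 libraries and stood at 0.0280 CPM in AMB10. Other genes of the list were counted in every library, such as DRD1 at 20.0 to 33.1 CPM and PPP1R1B at 25.9 to 37.8 CPM.

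Interneuron genes were set beside LAMP5. The 12 genes of the LAMP5-type interneuron list had a summed level from 814 CPM in AMB8 to 1309 in AMB3, the library in which LAMP5 was highest. GAD1 and RELN were the most counted genes in this sum. With each gene centred on its own median, the median log2 level of the list was instead highest in AMB10 (0.15). It was 0.08 in AMB3 and lowest in AMB8 (-0.39). Of this list, CPLX3, a complexin of these interneurons and of subplate neurons, stood at 124 CPM in AMB3 and at 20.4 and 20.6 in AMB8 and AMB10, where LAMP5 was at 24.5 and 27.7. The ratio of LAMP5 to GAD2, a GABA-synthesizing enzyme, lay between 0.211 in AMB9 and 0.365 in AMB6, a 1.73-fold span.

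Interneuron genes of other classes were lowest in sum in AMB10 (475 CPM) and AMB8 (501 CPM) and highest in AMB6 (849 CPM). With each gene centred on its own median, the median log2 level of the list was -0.94 in AMB8 and -0.44 in AMB10, and was highest in AMB5 (0.26). Not every gene followed: CALB2 was highest in AMB8, at 233 CPM, and PVALB in AMB10, at 5.45 CPM. SST, the somatostatin precursor, ran from 59.1 CPM in AMB8 to 232 in AMB6. Genes of the glutamatergic lineage, the class in which TBR1 is used, were highest in sum in AMB8 (2150 CPM), where TBR1 was near its lowest, and lowest in AMB7 (1320 CPM). In that list SLC17A7, a vesicular glutamate transporter, lay between 806 and 1365 CPM, and NEUROG2, a factor of neuronal progenitors, between 0.196 in AMB7 and 26.1 in AMB8.

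Astrocyte genes had a summed level of 6159 CPM in AMB10, 4620 in AMB3 and 4591 in AMB8, the 3 highest, and of 2810 in AMB7, the lowest. BCL11B had the same 3 highest libraries and the same lowest, and CUX2 the same 3 as its lowest and AMB7 as its highest. For 4 of the 6 astrocyte genes (66.7%) AMB3, AMB8 and AMB10 were the 3 highest libraries, against 9.71% of all tested genes. The summed level of thalamic genes lay between 187 CPM in AMB5 and 364 in AMB3. Of that list, GBX2 was at most 0.0897 CPM, whereas SLC17A6 lay between 18.1 and 124 CPM and CALB2 between 73.1 and 233 CPM. Meningeal genes ran from 86.2 CPM in AMB8 to 489 in AMB7 and oligodendrocyte genes from 756 in AMB5 to 4783 in AMB10. AMB8 was lowest and AMB7 highest in the meningeal sum, as in CUX2. AMB3, at 461 CPM, was high in meningeal RNA and low in CUX2 and RORB. The part of these cells in the members' values was not tested.

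**Figure D5:**
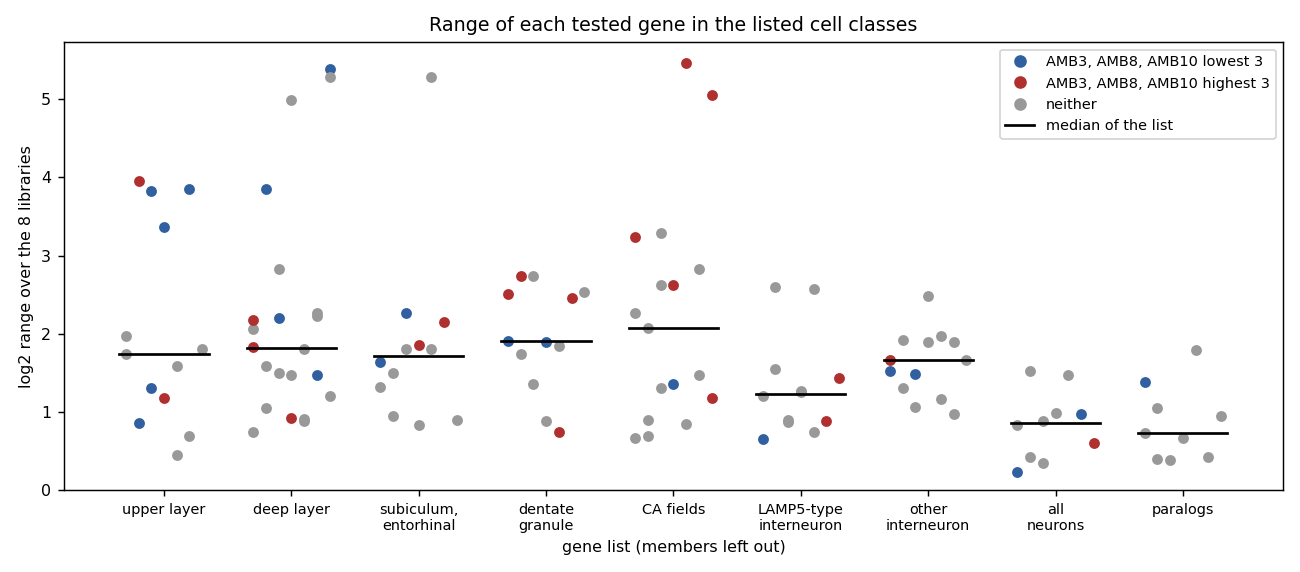
Log2 range over the 8 libraries (y axis) of each tested gene in 9 lists (x axis, the 8 names left out), coloured by whether AMB3, AMB8 and AMB10 were its 3 lowest (blue) or 3 highest (red) libraries; black lines are list medians. The upper-layer list holds 5 blue and 2 red genes, and the CA field list 1 blue and 5 red.

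The closest genes in pattern were sought among all tested genes with a name, as those with the smallest root-mean-square difference from a member in log2 CPM, each gene centred on its own median over the 8 libraries. CUX2 was closest to MEF2C (0.25), ADAMTS15, a secreted protease (0.27), and PDZRN3, a PDZ and RING domain protein (0.33). RORB was closest to FBXO32, a ubiquitin ligase subunit (0.33), RGS6, a regulator of G protein signalling (0.39), and PDZRN3 (0.41). RORB and CUX2 differed from each other by 0.64. For all of these genes AMB3, AMB8 and AMB10 were the 3 lowest libraries, which largely follows from choosing them by likeness to CUX2 or RORB.

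TBR1 was closest to PTGIS, prostacyclin synthase (0.17), GRIK3, a kainate receptor subunit (0.17), and ERFE, erythroferrone (0.19). GRIK3 ran at 172 to 249 CPM except in AMB8 (66.5) and AMB10 (75.7). BCL11B was closest to CCNO, an atypical cyclin (0.16), TMTC1, an O-mannosyltransferase (0.17), and DOC2B, a calcium sensor of vesicle release (0.18). For these 3 genes AMB3, AMB8 and AMB10 were the highest libraries, which again largely follows from the choice by likeness. The TLE4 locus was closest to TCERG1L (0.12), which stood at 24.5 CPM in AMB3, 9.12 in AMB8 and 10.9 in AMB10. Next came TG, thyroglobulin (0.18), and MAP3K15, a kinase (0.18). LAMP5 was closest to POC1B, a centriole protein (0.13), C1QTNF5 (0.13) and SMIM3 (0.15). PTGIS, ERFE, CCNO, TG, MAP3K15, C1QTNF5 and SMIM3 were at low levels, at most 10.6 CPM.

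The nearest tested genes on either side of CUX2, RORB, TBR1 and BCL11B had smaller log2 ranges than the gene itself, and those of LAMP5 had larger ones (PAK5 1.43, PLCB4 1.55). For FEZF2, CADPS had a larger range (0.77) and C2H3orf14 a similar one (0.40). For the TLE4 locus, LOC100999840, a pseudogene at 1.64 to 10.3 CPM, had a larger range (2.63) and LOC100997528 a smaller one (0.69). Beside TBR1, PSMD14, a proteasome subunit 3294 bases away, had a log2 range of 0.26. Beside CUX2, PHETA1, 11707 bases away, had one of 0.68. SH2B2 lay 594 bases from CUX1 and had a range of 0.95, close to the 0.94 of CUX1, but its lowest library was AMB10 and its highest AMB6. On the other side of CUX1, COL26A1, a collagen gene 258974 bases away, ranged from 6.25 CPM in AMB8 to 87.8 in AMB7, which is 3.80 on the log2 scale and shares both end libraries with CUX1 and CUX2. Of the genes that overlap RORB, CUX1 and CUX2 in position, none exceeded 0.757 CPM in any library, and none overlapped the others.

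Paralogs of the members ranged about as widely as tested genes at large. Of 14 listed, 9 passed the filter, 3 of these 9 spanned 1 or more on the log2 scale and none spanned 2, and the median was 0.72 against 0.77 over all tested genes. RORA, the sister receptor of RORB, ran from 13.4 CPM in AMB5 to 46.4 in AMB7. The ratio of RORB to RORA was 0.832 in AMB3, 0.958 in AMB8, 1.05 in AMB10 and 4.18 to 7.33 elsewhere. BCL11A, the paralog of BCL11B, lay between 128 and 212 CPM, lowest in AMB5 and highest in AMB7. TLE3 ran from 41.9 CPM in AMB3 to 109 in AMB7, and TLE5 from 341 to 448.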

How the data were processed

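RNA was sequenced in 8 hippocampus libraries with a strand-specific kit, per the labels' protocols. Raw columns hold the authors' estimated counts for each RefSeq gene. Between 22.5% and 26.7% of values above 0 were whole (tolerance 0.001). Normalized columns are on a log2 scale, deposited after scaling and centring. The submitters' processing notes name DESeq with no version. For the aligner, counter, strand setting and build, the entry is: not given in the sources used here. Every one of the 37053 genes was found by identifier and symbol in RefSeq's table for Panubis1.0.

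Counts were rounded. The low-count filter was filterByExpr (minimum count 10, groups none, which applies the minimum to all 8 libraries), and scaling used TMM in edgeR 4.0.16 (R 4.3.3). The log2 CPM used a prior count of 2. No group test was possible. Alternatives were DESeq2 1.42.0 size factors, library size alone, a prior count of 0.5, no filter, the deposited log2 values and each library left out. Members and lists were chosen with earlier results of these data known. The counts of genes with AMB3, AMB8 and AMB10 at an end of the order, and the count ratios, were added after the values were seen. Named genes were drawn by rule from: the members, the 3 nearest genes in pattern to each member with a log2 range of at least 1, and the 2 most counted and 2 widest of each list. Other genes named, including neighbours on the chromosome, were chosen afterwards. No sequences were used here. The values of 1 listed gene are not reported here.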

Additional observations from a re-analysis of the deposited data

How the results depend on the processing

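The counts over the 7 members were unmoved by DESeq2 size factors, library size alone, a prior count of 0.5 and the deposited log2 values: 5 with a log2 range of at least 1, 2 of at least 2, 5 with AMB3, AMB8 and AMB10 as the 3 lowest libraries and 1 with them as the 3 highest. Per neuronal count, added after the values were seen, they were 6, 2, 4 and 1. With 1 library left out, between 4 and 5 had a range of at least 1. The range of CUX2 lay between 4.01 and 4.54 over the 12 alternatives, of RORB between 3.34 and 3.97, and of TBR1 between 1.86 and 1.91. Without a filter on low counts, the share of genes with a range of at least 1 was 54.2% in place of 36.1%, and of at least 2 was 20.1% in place of 9.0%. The filter removes genes with few counts and also abundant genes that are near 0 in 1 library, such as NTS. Of 68 counts over the lists, library size alone moved 3 by more than 1.5 times, the deposited values 1, and DESeq2 size factors and the other prior count 0. No paired analysis was possible because the labels give no groups. Counting error is small at these depths, with at least 711 counts for every member in every library, but spread between animals cannot be separated from any other difference between libraries.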

Other observations

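Genes listed as partners or repressors of the layer genes, mostly transcription factors and cofactors but also RELN, ranged about as widely as tested genes at large. Of 17 listed, 16 are reported here. All 16 passed the filter and had a median log2 range of 0.76, against 0.77 over all tested genes. A range of at least 1 was found for 6 of the 16 (37.5%), against 36.1% of all tested genes. NR2F2, an orphan nuclear receptor of caudal cortex and of interneurons, stood at 96.3 CPM in AMB3, while no other library exceeded 47.2. TCF4, a basic helix-loop-helix factor, lay between 341 and 508 CPM.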
